A study of Homo sapiens with 20 samples.

Results

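The ELR-motif CXC chemokines are small secreted ligands with a glutamate-leucine-arginine motif just before the paired cysteines that define the CXC class. All rows of the count table with the symbol CXCL1, CXCL2, CXCL3, CXCL5, CXCL6 or CXCL8 were taken as members, which gave 6 genes of 20314 in the table. CXCL8 is interleukin-8. CXCL1, CXCL2 and CXCL3 are the GRO chemokines, CXCL5 is also known as ENA-78 and CXCL6 as GCP-2.

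RNA was sequenced from U2-OS cells, an established human osteosarcoma line, and 20 libraries, 5 per group, were compared. One group was left untreated, another was harvested 1.5 h after irradiation (IR) with 20 Gy and another 7 days after the same dose. The last group was not irradiated and carried a knockdown of NFKBIA, the gene of the NF-κB inhibitor IκBα. The study uses the 2 time points as a first and a second phase of NF-κB activity after DNA damage and asks which genes are active in each, and in cells with less of the inhibitor and no damage. Its methods describe doxycycline-inducible lentiviral shRNAs in cells selected with puromycin as clones, with doxycycline-treated scrambled shRNA cells as controls. Neither vector nor doxycycline is named for the untreated group, so vector, clone and doxycycline cannot be told apart from the knockdown in comparisons of that group. The labels only number the libraries of a group, while the study describes 5 biological replicates per group, so p values measure the spread between these samples.

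ELR chemokines attract and activate neutrophils through the receptors CXCR2 and, for CXCL8 and CXCL6, CXCR1. Their genes lie side by side on chromosome 4, are transcribed in response to IL-1, TNF and other NF-κB activating signals, and give short-lived mRNAs with AU-rich elements. In senescent cells they are among the best known secreted factors of the senescence-associated secretory phenotype.

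The 6 promoters shared an NF-κB motif, which is shown here because the study is about that factor. A search for GGAATTTCC on both strands, in RefSeq promoters of GRCh38.p14 from 250 bases before to 50 after each start, found it in 6 of the 6 members and in 0.461% of all 35116 promoters. The 30 bases around the motif are given 5′ to 3′ on the strand of each gene, with the motif in capitals.

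CXCL1: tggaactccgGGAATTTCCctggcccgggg
CXCL2: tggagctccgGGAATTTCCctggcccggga
CXCL3: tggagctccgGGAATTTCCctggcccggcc
CXCL5: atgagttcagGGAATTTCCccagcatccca
CXCL6: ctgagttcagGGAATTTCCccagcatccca
CXCL8: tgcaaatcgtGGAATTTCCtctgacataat

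The stretches lie at chr4:73869305-73869334 for CXCL1 and chr4:74099253-74099282 for CXCL2, chr4:74038748-74038777 for CXCL3 and chr4:73998748-73998777 for CXCL5, and chr4:73836579-73836608 for CXCL6 and chr4:73740468-73740497 for CXCL8. CXCL2, CXCL3 and CXCL5 are on the minus strand and the others on the plus strand. In the 3 GRO genes 27 or 28 of the 30 bases were identical between any pair, and CXCL5 and CXCL6 shared 29 of 30. Between these 2 sets 17 to 19 bases were identical, and between CXCL8 and the others 14 to 17. The 9 bases of the motif are identical in all pairs by choice.

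CXCL8, the member with the highest level, also held the only AP-1 motif of the family. The AP-1 motif TGANTCA was found in 7.71% of all promoters. The bases from position -150 to -64 before the RefSeq start of CXCL8, at chr4:73740419-73740505 on the plus strand, carry it upstream of the NF-κB motif, with both in capitals.

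CXCL8: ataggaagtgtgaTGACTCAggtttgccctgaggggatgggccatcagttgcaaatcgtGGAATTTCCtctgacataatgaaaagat

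The NF-κB motif of CXCL8 spans positions -91 to -83 from the start, and the 9-base motif of the other members begins between positions -90 and -77. A match of letters describes the sequence only, and binding was not measured in these files.

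Library totals ranged from 22535659 to 40390961 counts. The library of untreated replicate 5 stood apart: it had the lowest total, and the mean correlation of its log2 CPM (CPM, counts relative to the TMM-adjusted total of each library) with its own group was 0.977, against 0.985 to 0.997 in the other libraries. The targeted gene followed the labels, since NFKBIA was at 12.1 CPM ± 0.666 (SD, n = 5) in the knockdown libraries and 31.3 CPM ± 7.25 in untreated ones, with a log2 fold change of -1.36 (SE 0.11, edgeR adjusted p = 4.87e-09) and no overlap between the groups. The bone-forming lineage was visible in RUNX2, COL1A1 and SPARC, while COL1A2 had 4 to 21 counts and SP7 and IBSP 3 or fewer in every library. The summed level of 8 osteoblast lineage markers was 3995 to 4734 CPM in untreated cells, 3665 to 3975 at 1.5 h, 2688 to 3106 at 7 days and 2793 to 2960 in the knockdown. COL1A1 and SPARC made up most of this sum, whereas ALPL went from 26.9 CPM in untreated cells to 45.4 CPM at 7 days and was called higher, a call that was lost, with the sign changed, with the lane as a term of the fit. In the knockdown ALPL was called lower, at 6.84 CPM. Of 4 epithelial markers EPCAM, CDH1 and KRT8 were called lower at 7 days (list median -0.68), where 14.4% of all genes were called lower and 16.7% higher, and the sum went from 628 to 1108 CPM in untreated cells to 658 to 690 at 7 days. Of 2 mesenchymal markers FN1 was called higher, and the sum was 5217 to 9802 CPM in untreated cells and 9765 to 11216 at 7 days. With the lane as a term of the fit EPCAM, KRT8 and FN1 were not called at 7 days. Of the untreated and knockdown libraries, only untreated replicate 5 and knockdown replicate 1 shared a lane with another group. Each alone stands for its group in every fit with the lane as a term. In the knockdown 2 of the 4 epithelial and 1 of the 2 mesenchymal markers were called lower, as were 7.53% of all genes. The mesenchymal sum was 3975 to 4455 CPM there. Of 9 leukocyte and neutrophil markers S100A8 was at 0 throughout, and the summed level of the list was 4.48 to 5.58 CPM in untreated, 4.50 to 5.84 at 1.5 h, 10.1 to 11.6 at 7 days and 2.395 to 3.77 in the knockdown. ITGAM, an integrin chain of myeloid cells, rose at 7 days from 2.17 to 5.95 CPM (log2 fold change 1.48, SE 0.14, edgeR adjusted p = 1.17e-08). Of the 3 leukocyte markers tested, 2 were called higher at 7 days and 2, with ITGAM, lower in the knockdown. The knockdown call of ITGAM was lost with the lane as a term. The part of these markers in the chemokine results was not tested. In RNA from whole cultures, a change in the number of expressing cells and in RNA per cell cannot be told apart.

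The members differed in level by orders of magnitude. Per kilobase of the exon length given in the table, untreated cells had 1.93 CPM ± 0.495 of CXCL8, 0.266 ± 0.0642 of CXCL3, 0.0324 ± 0.0176 of CXCL5 and 0.0126 ± 0.0141 of CXCL6 (SD, n = 5). At 7 days the same measure was 24.6 ± 3.72 for CXCL8, 1.12 ± 0.185 for CXCL3, 0.165 ± 0.0758 for CXCL6 and 0.106 ± 0.0504 for CXCL5. CXCL8 and CXCL3 were thus the first and second members in both groups, without overlap, while the values of CXCL5 and CXCL6 overlapped and their order is not fixed by these libraries. CXCL1 and CXCL2 stood below them.

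CXCL1, the founding GRO chemokine, had 0 counts in all 20 libraries, which together held 656004432 counts. A count of 0 in all of them allows a level of up to 0.00457 CPM by the limit of 3 counts. This limit, like the intervals below, covers counting error only. CXCL2 was at 0 in the 15 libraries outside the 7 days group. In that group the 5 libraries had 1, 2, 0, 3 and 0 counts, so that reads appeared in 3 of them. The exact 95% interval of the ratio to untreated, from 6 counts against 0, begins at 1.19, and the exact permutation test gave p = 0.167 over libraries (two-sided, 5 against 5). Of the 100-base windows in its annotated transcripts, 5% also occur in CXCL3, so part of its few counts could belong to either gene. The 2 genes are the only members that share such windows.

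Only CXCL3 and CXCL8 had enough counts to pass the filter of the test across all genes, which left 14992 genes. The other 4 members were compared by their counts and by exact permutation tests of log2 CPM, whose smallest two-sided p with 5 libraries against 5 is 0.00794. Calls needed an adjusted p under 0.05 in edgeR's quasi-likelihood test together with a log2 fold change beyond 0.5 in either direction. In all, 27 permutation tests of members were made, and comparisons that use the same untreated libraries are not independent of each other.

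The first comparison asked what changed 1.5 h after irradiation. CXCL8 and CXCL3 were both called higher, against 2.08% of all genes tested. The untreated libraries had 5.79, 4.40, 4.18, 4.88 and 2.71 CPM of CXCL8, and the libraries at 1.5 h had 14.8, 14.6, 16.7, 16.5 and 19.03 CPM. Every irradiated library lay far above every untreated one, and untreated replicate 5 was the lowest. Such a lack of overlap was seen in 12.3% of all genes tested. The mean rose 3.66-fold in the fit, with a log2 fold change of 1.87 (SE 0.14, edgeR adjusted p = 5.44e-09), and 14 genes of the 14992 had a larger one.

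**Figure D1:**
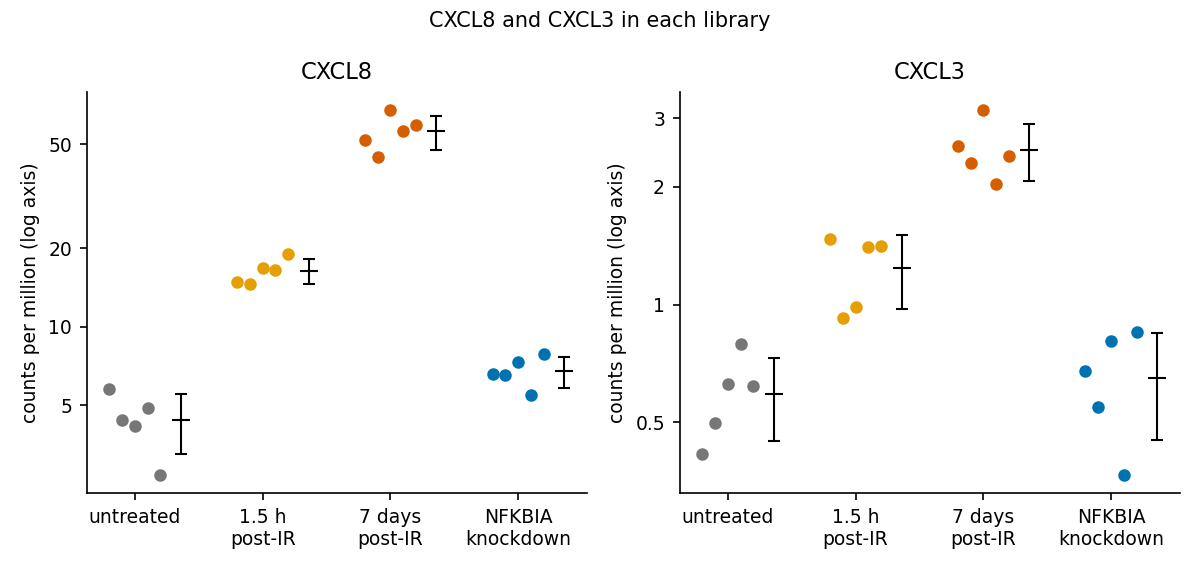
CPM of CXCL8 (left) and CXCL3 (right) on log axes; each point is 1 of 5 libraries per group, in replicate order, and the bar beside them is the mean ± SD. For both genes the 7 days libraries sit above all 1.5 h libraries, which sit above all untreated ones, and the knockdown libraries overlap the untreated range.

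CXCL3 gave counts of 14, 18, 25, 24 and 13 in untreated cells and of 58, 32, 35, 48 and 50 at 1.5 h. The groups did not overlap in CPM either, with means of 0.590 ± 0.142 and 1.24 ± 0.264 (SD, n = 5). Its log2 fold change was 1.08 (SE 0.21, edgeR adjusted p = 0.000954). The sequencing lane was read from the lane code in the labels. With it as a term of the fit CXCL3 had 0.87 (SE 0.49) and was no longer called, while CXCL8 had 2.501 (SE 0.25). Lane 2 held only untreated libraries, so untreated replicate 5 alone stands for its group in that fit. Lane 3 was the only lane with both groups, and within it the difference of log2 CPM between 3 libraries at 1.5 h and untreated replicate 5 was 2.47 for CXCL8 and 0.78 for CXCL3.

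CXCL5 and CXCL6 stayed at a few counts per library at this time. Untreated libraries had 3, 2, 1, 3 and 3 counts of CXCL5 and those at 1.5 h had 3, 4, 3, 3 and 10. One library, replicate 5 at 1.5 h, held most of the difference. The ratio of summed counts per depth was 1.73 with a 95% exact interval of 0.824 to 3.804 (exact permutation test p = 0.310). For CXCL6 the counts were 1, 0, 3, 1 and 0 in untreated and 2, 3, 0, 4 and 2 at 1.5 h. The groups overlapped, and the ratio of 1.98 had an interval of 0.634 to 7.27 (exact permutation test p = 0.198). A difference of either gene was not detectable at this depth.

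The next comparison set 7 days post-IR against untreated cells. The untreated group has no time label, so irradiation and time in culture cannot be told apart here. CXCL8 and CXCL3 were again both called higher, against 16.7% of all genes tested. CXCL8 reached 51.9, 44.6, 67.4, 56.4 and 59.2 CPM in the 5 libraries at 7 days. The lowest of these values lay above all values of the other 3 groups. The fold in the fit was 12.5, with a log2 fold change of 3.65 (SE 0.14, edgeR adjusted p = 1.05e-14), and 86 genes had a larger one. CXCL3 reached 2.55, 2.30, 3.14, 2.04 and 2.399 CPM, again without overlap with any other group, as in 44.8% of all genes tested against untreated. Its log2 fold change was 2.08 (SE 0.20, edgeR adjusted p = 8.43e-09). These 2 groups share no lane, so there is no value within a lane. With the lane as a term the 1.5 h libraries link the 7 days group to untreated replicate 5 alone. The log2 fold changes were then 3.94 (SE 0.28) for CXCL8 and 1.65 (SE 0.55) for CXCL3.

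CXCL6 had the largest ratio among the members below the filter that had counts in both groups. At 7 days the libraries had 10, 18, 12, 14 and 4 counts, against 0 to 3 in untreated cells. All 5 libraries lay above all untreated ones. The summed counts of 58 and 5 gave a ratio of 11.7 with a 95% exact interval of 4.73 to 37.3, and the exact permutation test gave p = 0.00794, the smallest it can give. CXCL5 had 9, 6, 17, 7 and 5 counts at 7 days, all above the untreated range in CPM. Its ratio was 3.69 with an interval of 1.92 to 7.68 (exact permutation test p = 0.00794). Of the 4105 genes with a count that were below the filter, 10.7% had all 7 days libraries above all untreated ones. That pool, used for each such share here, also holds genes at 0 in some 7 days libraries, such as CXCL2, which cannot show this order. When edgeR was fitted without a filter, CXCL6 had a log2 fold change of 3.36 (adjusted p = 1.71e-05) and CXCL5 of 1.78 (adjusted p = 0.00274), where 16.6% of 19097 genes were called higher.

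**Figure D2:**
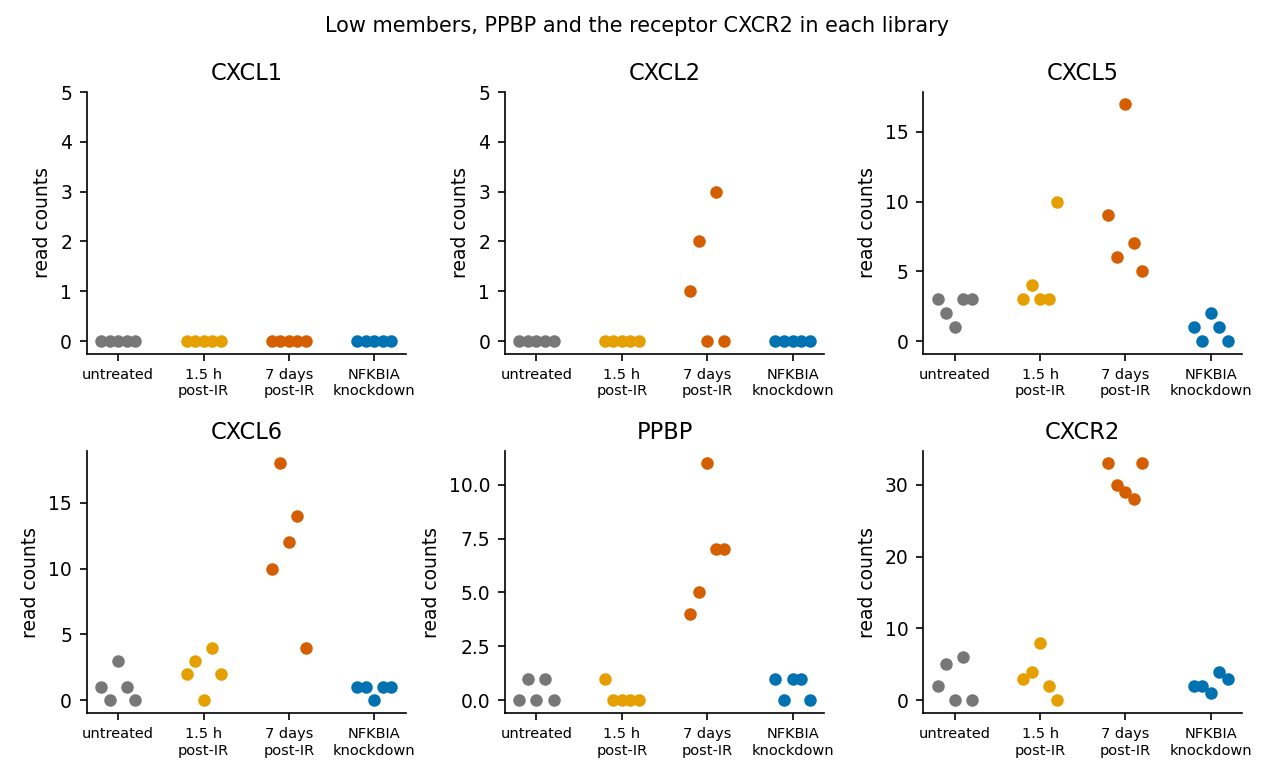
Read counts (linear axes) of the members CXCL1, CXCL2, CXCL5 and CXCL6, of the related ligand PPBP and of the receptor CXCR2; each point is 1 of 5 libraries per group, in replicate order. CXCL1 is at 0 throughout, and the 7 days libraries have 4 to 18 counts of CXCL6 and 28 to 33 of CXCR2.

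CXCR2, the receptor that the ligands share, had 2, 5, 0, 6 and 0 counts in untreated cells and 33, 30, 29, 28 and 33 at 7 days. The 7 days libraries were close to each other and far above the rest. CXCR2 passed the filter only through this group, so its edgeR call is no support, and the difference of log2 CPM was 3.11 by the exact permutation test (p = 0.00794). The fitted log2 fold change was 3.51 (SE 0.43). With the lane as a term it was 10.1, where untreated replicate 5, with 0 counts, alone stands for its group. CXCR1, the other signalling receptor, had at most 1 count in any library. ACKR1, a decoy receptor that binds these ligands without signalling, fell from 3.51 to 1.97 CPM at 7 days (log2 fold change -0.81, SE 0.15, edgeR adjusted p = 1.04e-04). PPBP, the platelet ligand with the same motif, had 4, 5, 11, 7 and 7 counts at 7 days and 0 or 1 in each untreated library. The groups did not overlap, and the exact permutation test of PPBP gave p = 0.00794. At 1.5 h and in the knockdown no receptor was called, which did not hold with the lane as a term.

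The gain from 1.5 h to 7 days was itself tested. CXCL8 had a log2 fold change of 1.78 (SE 0.13, edgeR adjusted p = 1.29e-10) and CXCL3 of 1.0004 (SE 0.17, edgeR adjusted p = 3.10e-05), both called higher against 16.8% of all genes tested. Neither gene overlapped between the times, as was so for 61.8% of all genes. Lane 4 held 2 libraries at 1.5 h and 2 at 7 days, and within it the differences of log2 CPM were 1.44 and 0.75 without overlap. CXCL6 was higher in all 5 later libraries, as were 12.4% of the genes below the filter, with a ratio of 5.90 and an interval of 3.06 to 12.5 (exact permutation test p = 0.00794). CXCL5 overlapped between the time points at a ratio of 2.14, with an interval of 1.26 to 3.71 (exact permutation test p = 0.0397). The CXCL5 difference missed the threshold without replicate 1, 2, 3 or 4 at 1.5 h (permutation p = 0.0873 each), without replicate 1 or 4 at 7 days (p = 0.0556 each) and without replicate 3 at 7 days (p = 0.0714). With no filter in the fit both genes were called, where 16.9% of genes were called higher.

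The knockdown of NFKBIA in non-irradiated cells asked which genes change without damage. CXCL8 alone was called higher, against 5.18% of all genes tested. Its libraries had 6.59, 6.55, 7.32, 5.46 and 7.90 CPM. The lowest of them lay within the untreated range, below the 5.79 CPM of untreated replicate 1. The log2 fold change was 0.60 (SE 0.15, edgeR adjusted p = 0.00300; exact permutation test p = 0.0159). Without untreated replicate 5 it was 0.48 (SE 0.14, edgeR adjusted p = 0.00710), under the fold threshold. With the lane as a term it was 0.74 (SE 0.35) and the call was lost. The 2 groups share no lane. In that fit knockdown replicate 1 and untreated replicate 5 alone stand for their groups, linked through the irradiated libraries.

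No other member was called in the knockdown. CXCL3 had 0.649 CPM ± 0.198 against 0.590 ± 0.142 (SD, n = 5), with overlapping libraries and a log2 fold change of 0.16 (SE 0.24, edgeR adjusted p = 0.628). CXCL5 had 1, 0, 2, 1 and 0 counts, lower than most untreated libraries, at a ratio of 0.345 with an interval of 0.0810 to 1.14 (exact permutation test p = 0.0556, 0.0238 without untreated replicate 3 and 0.0397 without knockdown replicate 3). CXCL6 had 1 count in 4 libraries and 0 in the other, and its ratio of 0.827 had an interval of 0.164 to 3.84.

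The knockdown libraries were also set against both irradiated groups. Against 1.5 h post-IR, CXCL8 and CXCL3 were called lower, as were 7.6% of all genes tested, with log2 fold changes of -1.27 (SE 0.14, edgeR adjusted p = 2.35e-07) and -0.92 (SE 0.21, edgeR adjusted p = 0.00119). Neither gene overlapped, as in 43.6% of all genes. The CXCL3 call was lost with the lane as a term, at -1.12 (SE 0.48), where knockdown replicate 1 alone stands for its group. CXCL5 was lower in all 5 knockdown libraries than in any library at 1.5 h, at a ratio of 0.200 with an interval of 0.0502 to 0.585 (exact permutation test p = 0.00794). Of the genes below the filter, 0.731% had this order. CXCL6 overlapped, at a ratio of 0.418 with an interval of 0.0970 to 1.41 (exact permutation test p = 0.175, 0.00794 without 1.5 h replicate 3). The 7 days libraries exceeded the knockdown by log2 fold changes of 3.04 (SE 0.14, edgeR adjusted p = 1.05e-13) for CXCL8 and 1.93 (SE 0.19, edgeR adjusted p = 2.77e-08) for CXCL3, where 15.8% of all genes were called higher. All 4 detected members shared by both groups, CXCL3, CXCL5, CXCL6 and CXCL8, were higher in every library at 7 days, as were 60.7% of tested genes in either direction and 10.6% of genes below the filter upward. With no filter all 4 were called, against 16.3% of genes. In lane 5, with 3 libraries at 7 days and knockdown replicate 1, the differences of log2 CPM were 3.19 and 1.79.

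**Figure D3:**
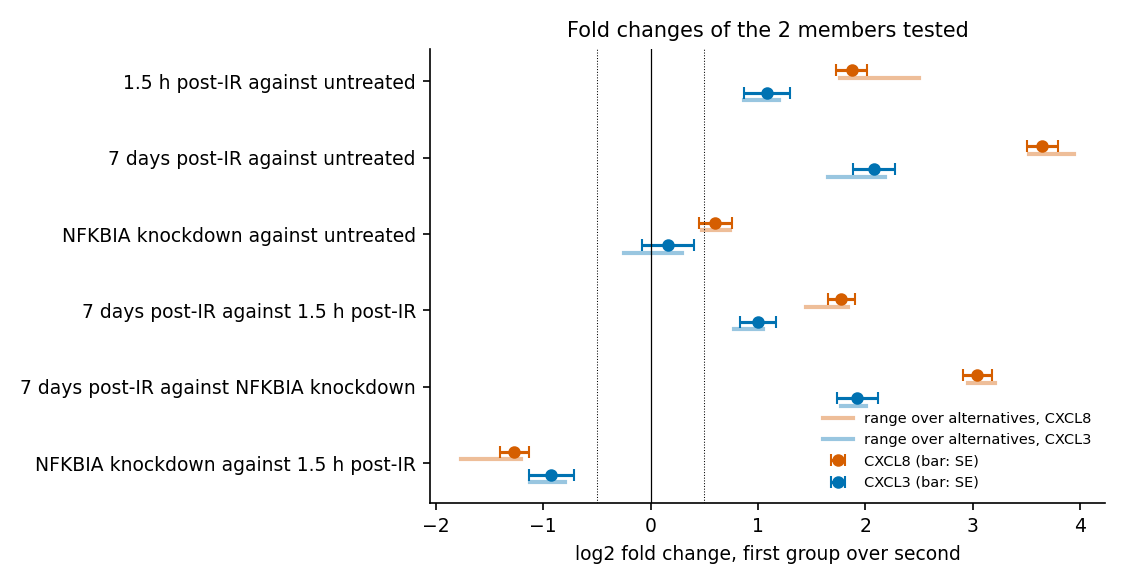
Log2 fold changes of CXCL8 and CXCL3 in the 6 comparisons (x axis, first group over second); points are the fitted values with their SE, pale lines the range over the alternative settings, and dotted lines the threshold of 0.5 in size. Within each comparison the CXCL8 value lies farther from 0 than that of CXCL3, and CXCL8 in the knockdown against untreated is the point whose range crosses the threshold.

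CXCL8 took most of the family's counts in every library. The 6 members together made 5.09 CPM ± 1.08 in untreated cells, 17.8 ± 1.96 at 1.5 h, 59.05 ± 8.70 at 7 days and 7.47 ± 1.10 in the knockdown (SD, n = 5). CXCL8 made up 91.5, 88.8, 85.2, 84.1 and 78.1% of their counts in the untreated libraries. The share was 91.9% ± 1.49 at 1.5 h, 94.6% ± 0.875 at 7 days and 90.8% ± 1.39 in the knockdown. Untreated libraries were the most spread. In exact permutation tests adjusted over 4 comparisons, the share differed from untreated at 1.5 h (p = 0.0317) and at 7 days (p = 0.0317) but missed the threshold in the knockdown (p = 0.0556), and it was 2.67 percentage points higher at 7 days than at 1.5 h (p = 0.0317). The unadjusted p at 1.5 h was 0.0238, and 0.0635 without replicate 2 or 3 and 0.0556 without replicate 5 of that group. In the knockdown it was 0.00794 without untreated replicate 1 and 0.0476 without untreated replicate 2. The differences from untreated were 6.39 points at 1.5 h and 9.06 at 7 days. Among CXCL5, CXCL6 and CXCL8 alone they were 1.504 (unadjusted exact permutation test p = 0.0238) and 1.51 (p = 0.0159), and the difference between the times was 0.00399 points (p = 0.984).

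**Figure D4:**
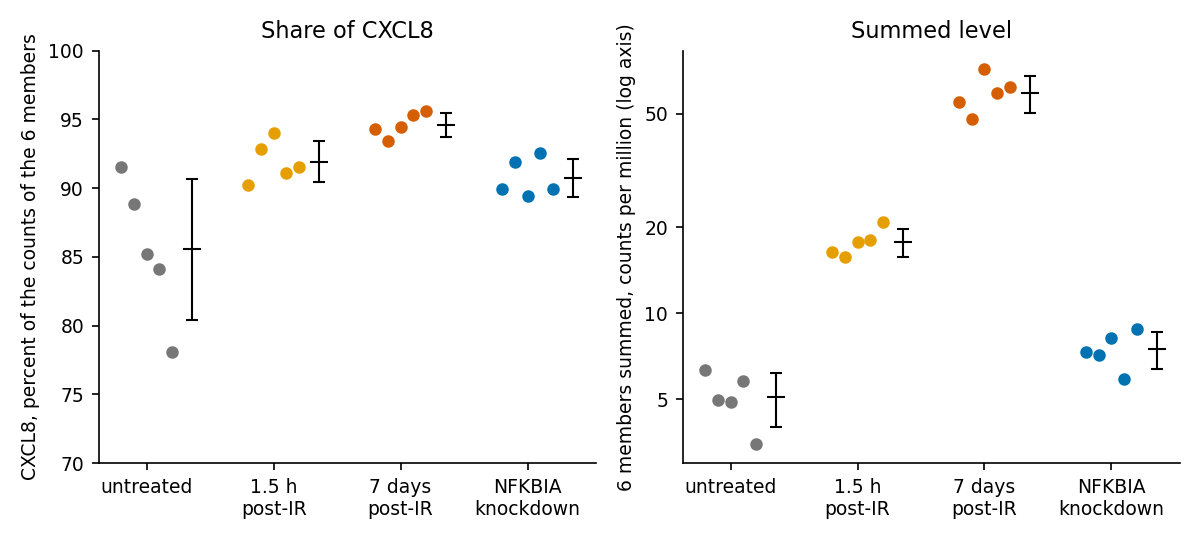
Left, CXCL8 as a percent of the counts of the 6 members (axis from 70 to 100); right, the CPM of the 6 members summed (log axis); points are libraries, 5 per group, and bars the mean ± SD. The share ranges from 78.1 to 91.5% in untreated libraries and from 93.4 to 95.6% at 7 days.

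Around the members the locus held both silent and changing genes. On GRCh38 the members lie between position 73740506, the lowest of CXCL8, and 74099293, the highest of CXCL2, in GENCODE 29. The RefSeq start of CXCL8 used for its promoter lies downstream of its GENCODE position. GENCODE 29 places 18 protein-coding genes from ALB to BTC, in the order drawn in the plot of the locus, and CXCL6 overlaps the pseudogene PPBPP1 while no other member overlaps a gene. PF4 and PF4V1, platelet factors without the motif, were at 0 in all libraries but 1, which had 1 count of PF4. A list of 10 neighbours held the other genes of this stretch except PPBP, and also PARM1, which lies outside it, and 6 of the 10 passed the filter. At 7 days EREG, AFP and BTC were called higher and none lower, with a median log2 fold change of 0.80 over the 6 against 0.01 over all genes tested, of which 16.7% were called higher. EREG, an EGF family growth factor, had 1.504 (SE 0.15, edgeR adjusted p = 2.01e-08). AFP, the fetal serum protein, had 1.24 (SE 0.16, edgeR adjusted p = 8.70e-07). BTC, another EGF family ligand, had 1.17 (SE 0.18, edgeR adjusted p = 1.17e-05), a call lost with the lane as a term. ALB, at 0 or 1 count in every other library, had 9 to 19 counts at 7 days. No neighbour was called at 1.5 h. With the lane as a term more of the 6 were called lower in each comparison with untreated, also at 1.5 h, and the share over all genes in that fit was not computed. In the knockdown EREG rose by a log2 fold change of 1.45 (SE 0.15, edgeR adjusted p = 1.70e-07), a call lost with the lane as a term. MTHFD2L rose by 0.55 (SE 0.06) and PARM1 had -0.85 (SE 0.17) on the log2 scale, where 7.53% of all genes were called lower.

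**Figure D5:**
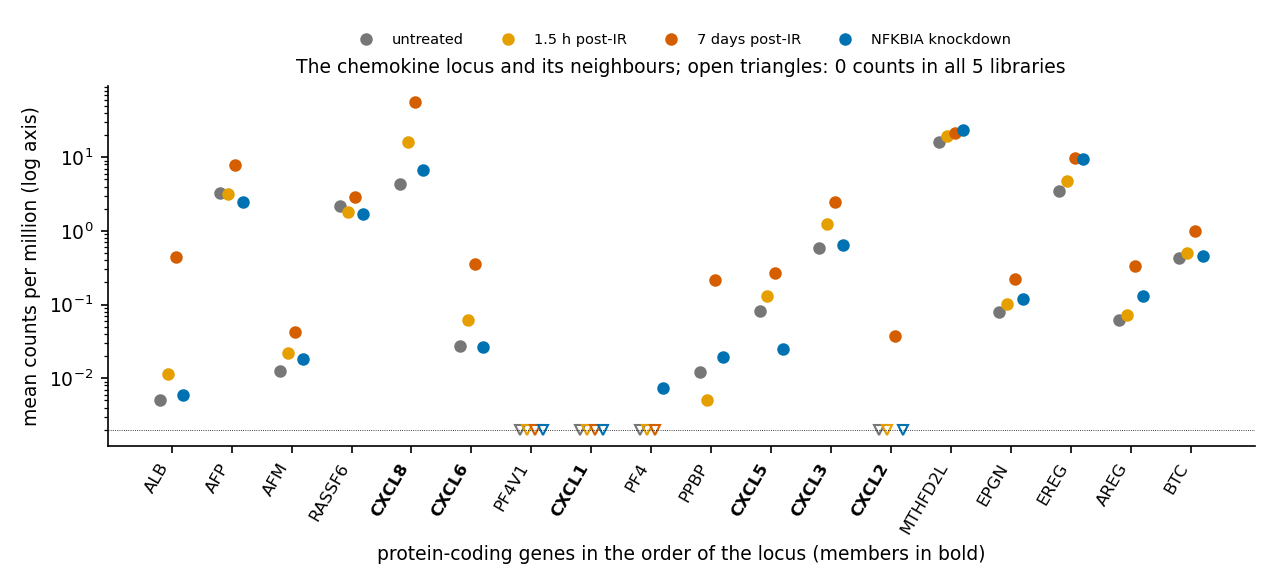
Mean CPM (log axis) of 18 protein-coding genes in their order along the locus, members in bold, with 1 point per group (mean of 5 libraries); open triangles on the dotted line mark 0 counts in all 5 libraries. Orange-red 7 days points are the highest of the 4 at CXCL8, CXCL6, CXCL5 and CXCL3, and CXCL1 and PF4V1 have triangles only.

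The regulators of the pathway were read from lists. Of 11 NF-κB subunits and inhibitors 4 were called higher and none lower at 1.5 h, with a median log2 fold change of 0.46 against -0.03 over all genes tested, of which 2.08% were called higher. They were TNFAIP3 with 1.41 (SE 0.09) and NFKBIA with 1.40 (SE 0.10), both inhibitors of the pathway, and with smaller changes NFKBIE and NFKBIZ. At 7 days 5 were called higher and none lower, with a median of 0.46, where 16.7% of all genes were called higher. They were NFKBIZ, a nuclear cofactor, with 1.19 (SE 0.09, edgeR adjusted p = 4.11e-10), and with smaller changes RELB, NFKB2, NFKBIE and TNFAIP3. With the lane as a term, where untreated replicate 5 alone stands for its group, TNFAIP3 changed sign at 7 days and NFKBIZ was not called at 1.5 h. Without untreated replicate 5 the list had 5 called higher at 1.5 h, and NFKB2 was not called at 7 days. NFKBIA itself had -0.02 (SE 0.10, edgeR adjusted p = 0.886) at 7 days. In the knockdown 3 were called lower and none higher: NFKBIA, TNFAIP3 and RELB, with a median of -0.32 against -0.01 over all genes, of which 7.53% were called lower. With library size alone or upper-quartile factors only NFKBIA of these 3 was called. With the lane as a term more genes of the list were called lower in each comparison with untreated, and the share over all genes in that fit was not computed. RELB changed sign in the knockdown with the lane as a term, and TNFAIP3 was not called without untreated replicate 5.

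Among cytokines that induce the family, IL1A rose in all 3 comparisons with untreated cells. Its means were 0.498 CPM ± 0.179 in untreated, 1.15 ± 0.177 at 1.5 h, 9.71 ± 1.12 at 7 days and 2.19 ± 0.590 in the knockdown (SD, n = 5). The log2 fold changes were 1.17 (SE 0.23), 4.23 (SE 0.19) and 2.08 (SE 0.22). IL1B, with at most 2 counts in any other library, had 10 to 26 at 7 days, all above the untreated libraries (exact permutation test p = 0.00794). TNF had 18 to 38 counts at 1.5 h, 1 to 8 in untreated cells and 3 to 13 at 7 days. All its libraries at 1.5 h lay above all untreated and all 7 days ones (exact permutation test p = 0.00794 each). IL1B and TNF passed the filter through the group where each was high, so their edgeR calls, both lost against untreated with the lane as a term, are no support. Of the 9 genes in this list, 8 were tested. Of all genes 2.08% were called higher at 1.5 h, 16.7% higher and 14.4% lower at 7 days, and 5.18% higher and 7.53% lower in the knockdown, in the fit without the lane. Besides these 2, IL1A was called higher in each comparison with untreated and IL17RC lower at 7 days, a call lost with the lane as a term. With that term more of the 8 were called lower in each comparison with untreated, and the share over all genes in that fit was not computed.

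AP-1 and C/EBP factors bind beside NF-κB at the CXCL8 promoter. At 1.5 h 5 of 7 were called higher and none lower, with a median log2 fold change of 0.61, where 2.08% of all genes were called higher, led by ATF3 with a log2 fold change of 2.60 (SE 0.09, edgeR adjusted p = 5.86e-15) and JUNB with 1.14 (SE 0.08, edgeR adjusted p = 3.59e-09). The others were FOS, JUN and CEBPB. At 7 days ATF3 alone was called, higher than in untreated cells (median 0.17), and in the knockdown ATF3 and CEBPD were called lower (median -0.34). Of 7 regulators of AU-rich mRNA decay 2 were called higher at 1.5 h (ZC3H12A and ZFP36L2, list median 0.01), 1 higher and 2 lower at 7 days (ZC3H12A against ZFP36L2 and HNRNPD, list median -0.37), and 2 lower in the knockdown (ZFP36L1 and ZFP36L2, list median -0.43). With the lane as a term both lists had more genes called lower in each comparison with untreated. In that fit untreated replicate 5 and knockdown replicate 1 alone stand for their groups, and its share over all genes was not computed. The lane as a term removed the calls of FOS and ZFP36L2 at 1.5 h, ZC3H12A at 7 days and ATF3 in the knockdown. Without untreated replicate 5 the calls of CEBPB at 1.5 h and ZFP36L1 in the knockdown were lost. The AP-1 and C/EBP list then still had 5 higher at 1.5 h and had 2 higher at 7 days, and the decay list had 3 higher at 1.5 h. Of all genes 16.7% were called higher and 14.4% lower at 7 days, and 7.53% lower in the knockdown. HNRNPD, the AU-rich element binding protein AUF1, fell at 7 days to 185 CPM ± 3.77 from 388 ± 51.0 (log2 fold change -1.07, SE 0.07, edgeR adjusted p = 8.99e-12).

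The genes most like each member were ranked by Pearson's r of log2 CPM over the 20 libraries, among 13516 other genes with a mean of at least 1 CPM. For CXCL8 they were FAS, a death receptor (r = 0.990), TIGAR, a regulator of glycolysis (r = 0.982), and PVRL4, a nectin (r = 0.982). Leaving out the other members, for CXCL3 they were IP6K3 (r = 0.948), PTPRR (r = 0.940) and FAM84A (r = 0.927). CXCL3 itself was at rank 66 for CXCL8, and CXCL8 at rank 3 for CXCL3, with r = 0.932 between them. The libraries fall into 4 groups, so these values mainly describe the group means. FAS went from 34.0 CPM ± 3.02 in untreated cells to 69.9 ± 1.09 at 1.5 h, 120.0 ± 1.76 at 7 days and 45.9 ± 0.689 in the knockdown (SD, n = 5), in the same order of groups as CXCL8.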

How the data were processed

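Total RNA of U2-OS cells was made into stranded mRNA libraries and sequenced as single reads of 100 bases on an Illumina HiSeq instrument. The authors deposited 1 table of read counts per gene for all 20 libraries, without normalization. The submitters' processing notes name bcl2fastq, Trimmomatic, STAR 2.4.2a and hg19. The counting program, annotation and strand setting are not given in the sources used here, so reads of similar or overlapping genes may have been split or lost. For the 6 members the deposited gene width equals the exon length in GENCODE 29. Totals of 22535659 to 40390961 counts set the precision.

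The analysis used edgeR 4.0.16 under R 4.3.3. A gene was kept by filterByExpr with a minimum count of 10 (14992 genes), scaled by TMM and fitted in a single quasi-likelihood model over the 4 groups. Benjamini-Hochberg adjustment of p values covered all genes tested, and SE is the log2 fold change over the root of F. CPM used TMM-scaled totals, and log2 CPM a prior count of 2. Exact permutation tests were two-sided. Ratios of summed counts have exact binomial 95% intervals. A gene at 0 was given the limit of 3 counts. The tests were tried on simulated data. Groups were taken from the sample titles. Other scalings, DESeq2 1.42.0, other filters and thresholds, the lane, a replicate block and leaving out each library were alternatives. All 6 members are named, with the 3 most similar genes per tested member. Of the lists, values are given for direct ligands, receptors, locus neighbours and called genes that changed by over 1 on the log2 scale, up to 4 per list and comparison. Other called genes and the marker genes were named after their values were seen. Members and lists were chosen with earlier results of these data known. Promoters are from RefSeq (GRCh38.p14), which held all 6 members. Gene positions on hg19 were not used here.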

Additional observations from a re-analysis of the deposited data

Results flagged for a closer look

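Among 17 combinations of a member and a group with any counts, 3 had a library far from the other 4, judged by its gap to the next value over the range. How often chance gives such a gap at counts this low was not tested. CXCL5 was at 0.283 CPM in 1.5 h replicate 5, against 0.115 in the next library. It was at 0.490 CPM in 7 days replicate 3, against 0.263 in the next. CXCL6 was at 0 in knockdown replicate 3, next to 0.0294 CPM, which is the step from 0 to 1 count. All 3 rest on few counts, between 0 and 17.

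The level differed between the 2 times after irradiation for CXCL8, CXCL3 and CXCL6, and less firmly for CXCL5. This is the contrast of 7 days against 1.5 h given above, with log2 fold changes in edgeR of 1.78 for CXCL8 and 1.0004 for CXCL3. In log2 CPM by exact permutation tests it was 1.76 for CXCL6 (p = 0.00794) and 0.81 for CXCL5 (p = 0.0397). Irradiation and time in culture cannot be told apart in it. The CXCL5 groups overlapped, and its difference missed the threshold in 7 of 13 alternatives, with p up to 0.0873.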

How the results depend on the processing

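Under all alternatives CXCL8 and CXCL3 kept their direction and their calls at 7 days against the 3 other groups, with log2 fold changes of 3.52 to 3.94 for CXCL8 and 1.65 to 2.19 for CXCL3 against untreated. CXCL8 kept its call at 1.5 h at 1.76 to 2.501. Without a filter 4 members were called higher at 7 days against each of the 3 other groups, in place of 2, since CXCL5 and CXCL6 were then tested, and 3 were called lower in the knockdown against 1.5 h, in place of 2, with CXCL5 added (log2 fold change -2.18, SE 0.68, edgeR adjusted p = 0.0159). With the lane as a term the calls of CXCL3 at 1.5 h and of CXCL8 in the knockdown against untreated were lost. The call of CXCL3 in the knockdown against 1.5 h was lost as well, and its log2 fold change in the knockdown against untreated turned to -0.25. In that fit untreated replicate 5 and knockdown replicate 1 alone stand for their groups. The cause was not tested. With a threshold of 1 on the log2 fold change, 0 members were called in the knockdown against untreated and 1 lower against 1.5 h. Leaving out each library in turn left 0 to 1 members called in the knockdown against untreated, with 0 without untreated replicate 5, and no other count moved. The difference of CXCL6 in the knockdown, never past the threshold, ranged from -0.0906 to 0.199 log2 CPM when each library was left out. For the share of CXCL8, leaving out libraries gave 4.52 to 7.89 points at 1.5 h, 7.19 to 10.6 at 7 days, 3.33 to 6.70 in the knockdown and 2.24 to 3.18 between the times. The call at 1.5 h was lost without replicate 2, 3 or 5 of that group, and the knockdown passed the threshold without untreated replicate 1 or 2. Among CXCL5, CXCL6 and CXCL8 the share difference fell to 1.504 points at 1.5 h and 1.51 at 7 days, still past the threshold, and moved to 1.86 points in the knockdown (exact permutation test p = 0.0159) and to 0.00399 between the times (p = 0.984). Replicate numbers are shared between groups, but over 30 pairs of libraries with the same number the correlations of their deviations ran from -0.254 to 0.123 and 2 were above 0.1, so the numbers were not taken as pairs. With the replicate block 2 members were called at 1.5 h, 2 at 7 days and 1 in the knockdown against untreated, as without it. Depth limits what can be said of CXCL1, CXCL2, CXCL5 and CXCL6, whose counts did not exceed 18 in any library.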

Other observations

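CXC ligands without the ELR motif were measured in the same libraries, and their difference from the ELR members was not tested. CXCL14, a ligand of epithelia and fibroblasts, had 1539 to 2216 counts in untreated cells and 22 to 31 at 7 days, a log2 fold change of -6.18 (SE 0.19, edgeR adjusted p = 2.16e-16), and in the knockdown it fell to 12.6 CPM ± 1.48 from 60.9 ± 16.5 (SD, n = 5; log2 fold change -2.27, SE 0.14). No library of the 7 days or knockdown groups overlapped the untreated range. CXCL12, the ligand of CXCR4, rose at 7 days (log2 fold change 0.91, SE 0.16, edgeR adjusted p = 3.38e-05) and in the knockdown (1.23, SE 0.15, edgeR adjusted p = 1.92e-06). Of the 8 such ligands 3 passed the filter, and none was called at 1.5 h, which did not hold with the sequencing lane as a term of the fit. CXCL10 and CXCL11, ligands of CXCR3 that interferons induce, had 8 to 20 and 8 to 18 counts at 7 days, against 0 to 2 and 0 to 4 in untreated cells.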
